A study of Mus musculus with 16 samples.

Results

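The S100a genes encode small proteins of a family named for calcium binding. The 8 described here (S100a1, S100a4, S100a6, S100a8, S100a9, S100a10, S100a11 and S100a13) were taken by symbol from the 31053 genes of each library. They were followed across cell classes of CD45+ immune cells from tumors of mice with and without radiation. A list of 11 other genes with S100 symbols included S100pbp, which encodes an S100-binding protein, and 10 of them were in the files. Over all cells the highest were S100pbp at 21.5 CPM (counts scaled to a total of 1000000) and S100a16 at 7.87 CPM. The 16 libraries fall in 4 groups of 4. The tumors grew from MC38, derived from a colorectal carcinoma, or from Panc02-SIY, derived from a pancreatic adenocarcinoma and carrying SIY, a model antigen. Each was grown under the skin of the right flank of C57BL/6J mice aged 6 to 8 weeks, and the tumors were left untreated or received a single CT-guided dose of 12 Gy at about 5 mm and were taken 24 hours later. All groups shared a magnetic enrichment and a sort of live CD45+ cells before droplet-based 3′ single-cell RNA sequencing. The comparisons ask how each tumor line's immune cells differ a day after radiation and how the lines differ from each other. The series' design gives 4 animals per group and the study's methods 3, and neither ties a library to an animal, so p-values here measure the spread between libraries, which may in part be technical.

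Most S100 proteins, though not all, bind calcium through EF-hand loops. They mostly act as dimers, inside the cell on partner proteins or, once released, on receptors such as RAGE (Ager) and TLR4. S100A8 and S100A9 pair as calprotectin, a main cytosolic protein of neutrophils. S100A4 binds non-muscle myosin and is known from motile cells. S100A6 binds calcyclin-binding protein, S100A10 pairs with annexin A2 at the membrane, S100A11 binds annexin A1, S100A13 takes part in the release of FGF1, and S100A1 is best known from muscle.

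The libraries held 28678 cell barcodes, of which 20768 were used, with 174992790 unique molecular identifiers (UMIs, counted transcripts) in all and 1385711 to 43708746 per library. MC38 libraries shared a median of 83.3% of their barcodes with each other, so that 9843 deposited MC38 barcodes were 2632 distinct ones, against 5.54% between Panc02-SIY libraries and a median of 0 between the lines. Each barcode was therefore kept only in its richest library. One irradiated MC38 library, replicate 1, stood apart, with 147 barcodes of which 59.9% had most of their UMIs there. Classes were gated on marker genes that hold no S100a gene, and 80.6% of barcodes fell in a class. MC38 libraries held 14 neutrophil-like and 15 B cell-like barcodes in all, too few for a value per library. The sort left 166 fibroblast-like and 57 epithelial- or cancer cell-like barcodes, which held 7.54% and 3.13% of all S100a6 UMIs.

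In the mm10 genome all 8 genes lie on chromosome 3 in a pair of stretches. The first 6 members span 184.7 kb (chr3:90511034-90695721) and S100a11 and S100a10 span 44.2 kb (chr3:93520488-93564643), 2.82 Mb away. S100a1 (chr3:90511034-90514392, minus strand) and S100a13 (chr3:90514435-90524581, plus strand) start head to head with 42 bases between them. S100a4 (chr3:90603771-90606045) and S100a6 (chr3:90612882-90624181) are 6836 bases apart on the plus strand, and the predicted gene Gm42674, also counted in the files, overlaps S100a4 on the same strand. S100a8 (chr3:90668978-90670035, plus strand) and S100a9 (chr3:90692632-90695721, minus strand) face each other across 22596 bases. Sequence ahead of the first annotated transcript start is shown for S100a4 and S100a6, which had unlike levels in neutrophil-like cells. It is also shown for S100a8 and S100a9, which had much the same pattern across classes. Capitals mark TATAAA, the CEBP-type motif TTGCNNAA and the GC box GGGCGG, searched on both strands. The last line is a stretch inside the annotated S100a8 gene. RefSeq (GRCm38.p6) is the source.
S100a4, chr3:90603520-90603769, plus strand: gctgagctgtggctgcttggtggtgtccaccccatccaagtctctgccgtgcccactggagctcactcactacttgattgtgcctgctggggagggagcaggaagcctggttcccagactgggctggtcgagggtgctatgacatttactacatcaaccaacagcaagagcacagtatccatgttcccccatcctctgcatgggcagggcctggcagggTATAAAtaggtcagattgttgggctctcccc
S100a6, chr3:90612644-90612881, plus strand: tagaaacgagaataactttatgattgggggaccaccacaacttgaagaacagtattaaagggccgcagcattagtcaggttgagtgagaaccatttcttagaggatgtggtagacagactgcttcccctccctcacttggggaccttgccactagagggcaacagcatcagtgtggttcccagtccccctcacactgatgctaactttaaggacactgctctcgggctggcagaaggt
S100a8, chr3:90668821-90668977, plus strand: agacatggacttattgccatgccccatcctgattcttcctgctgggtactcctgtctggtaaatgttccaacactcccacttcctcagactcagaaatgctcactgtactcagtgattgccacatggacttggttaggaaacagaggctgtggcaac
S100a9, chr3:90695722-90695971, minus strand: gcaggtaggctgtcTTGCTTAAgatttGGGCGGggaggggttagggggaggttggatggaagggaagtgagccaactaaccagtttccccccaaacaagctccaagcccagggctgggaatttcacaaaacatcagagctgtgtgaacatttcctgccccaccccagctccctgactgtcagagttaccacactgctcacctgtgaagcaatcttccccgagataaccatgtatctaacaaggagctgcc
S100a8, chr3:90669029-90669058, plus strand: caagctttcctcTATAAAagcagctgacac

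The TATAAA began 31 bases ahead of the RefSeq start of S100a4 and 30 bases ahead of that of S100a8. The S100a6 window held none of the 4 motifs searched, which also included the AP-1 motif TGANTCA. In S100a9 a TATAAA began at the RefSeq start itself, outside the window printed. Among 32851 RefSeq windows of 250 bases ahead of a start, 12.4% held TATAAA, 9.56% TTGCNNAA, 6.75% TGANTCA and 32.7% GGGCGG. The S100a11 window held TGANTCA in 2 and GGGCGG in 3 places, and those of S100a1 and S100a13 held no match. S100a10 had no entry. A match describes letters only.

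The family split by class. S100a8 and S100a9 were neutrophil genes here, S100a6 was high in most classes, among the 7 classes ordered S100a4 was highest in monocyte-like cells, S100a10 and S100a13 in T cell-like cells, S100a11 in neutrophil-like cells, and S100a1 in macrophage-like cells. Together the 8 genes gave 3.90% ± 0.67 of UMIs in Panc02-SIY neutrophil-like cells (SD, n = 8 libraries), 0.684% ± 0.025 in monocyte-like, 0.631% ± 0.078 in T cell-like, 0.429% ± 0.154 in cDC-like (conventional dendritic cells), 0.307% ± 0.058 in NK cell-like and 0.101% ± 0.033 in macrophage-like cells of that line. MC38 macrophage-like cells gave 0.197% ± 0.024 (n = 8) and B cell-like cells of Panc02-SIY 0.0994% ± 0.0271 (n = 7). Levels below are CPM within a class and library, from at least 10 barcodes. Since every transcript is tagged at its 3′ end, no length scaling enters. Over all members, 24 of 48 neighbouring classes in the order of levels differed by an exact sign-flip permutation test paired by library (adjusted p below 0.1). Neutrophil-like and B cell-like cells entered from Panc02-SIY only. Within MC38 the log2 difference was -0.40 for S100a6 (NK cell-like over macrophage-like), -0.39 for S100a10 (cDC-like over macrophage-like) and -0.04 for S100a1 (NK cell-like over T cell-like). It was positive in the other passing pairs with MC38 libraries.

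**Figure D1:**
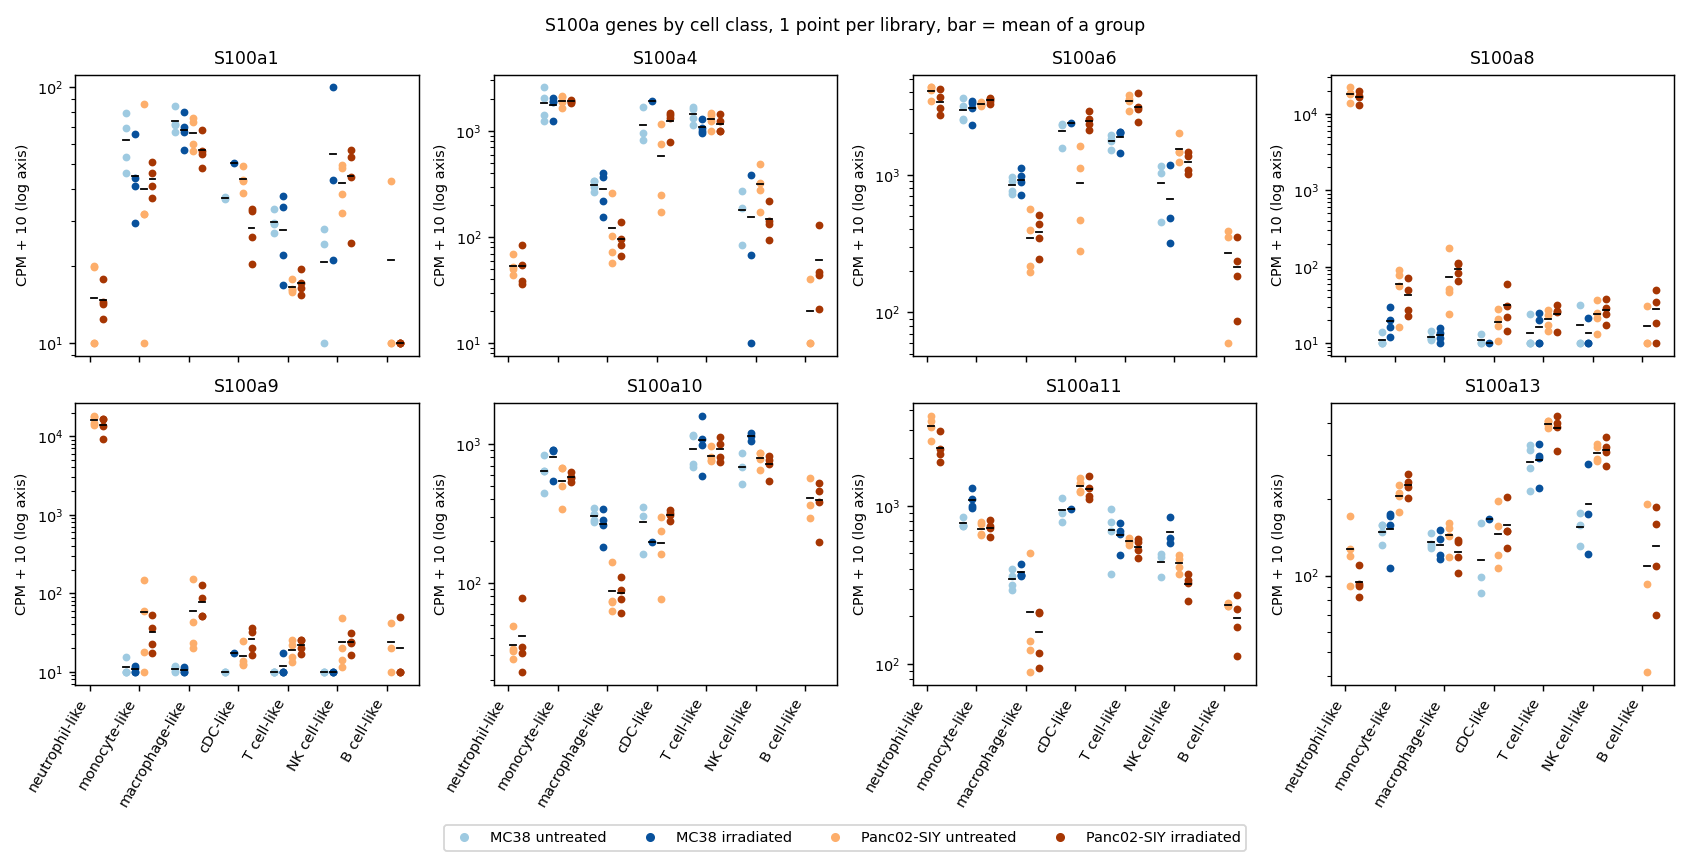
CPM plus 10 on a log axis for each of the 8 S100a genes (panels) in 7 cell classes (x axis), with 1 point per library and a bar at the mean of each group. S100a8 and S100a9 stand far above all other classes in the neutrophil-like column, S100a10 and S100a13 peak in T cell-like cells, and within each treatment MC38 macrophage-like libraries lie above those of Panc02-SIY for S100a4, S100a6 and S100a10.

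S100a8 and S100a9, the calprotectin pair, were almost wholly in neutrophil-like cells, which are 8.09% of barcodes and held 88.6% of all S100a8 and 90.6% of all S100a9 UMIs. S100a8 measured 22271, 17956, 18821 and 14008 CPM in the untreated Panc02-SIY libraries and 16426, 19753, 12975 and 17060.4 CPM in the irradiated ones. S100a9 measured 18163, 14529.5, 17346 and 13968 CPM untreated and 13369, 16659, 9086 and 16460.2 CPM irradiated. The groups overlap for both genes. S100a8 gave 1.16 UMIs per S100a9 UMI in the class, and 53.7% of the pair's UMIs (95% exact binomial interval 53.5 to 54.0%, counting error only). A UMI of S100a8 was found in 81.5% of Panc02-SIY neutrophil-like barcodes (median 2324 UMIs) and of S100a9 in 78.8%. In T cell-like barcodes of the same line, which should lack both genes, the shares were 6.05% and 5.35% at a median of 7002.5 UMIs. The 14 MC38 neutrophil-like barcodes held 344 and 318 UMIs of the pair, which is 8455 and 7816 CPM pooled. The next class in order, macrophage-like cells, was 7.92 log2 units lower for S100a8 and 8.05 lower for S100a9 over 8 libraries (exact sign-flip permutation test, adjusted p = 0.0234 each, all 8 libraries in that direction).

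Outside neutrophil-like cells the pair was found in few barcodes. In Panc02-SIY macrophage-like cells the top 1% of barcodes held 89.2% of the pair's UMIs in untreated and 92.5% in irradiated libraries. Barcodes of that class with UMIs of at least 2 of 10 neutrophil markers had 87.5 CPM of S100a8 untreated and 136 CPM irradiated. Those with 1 had 3.34 and 24.55 CPM, below those with none at 11.8 and 29.8 CPM. Barcodes with 2 or more markers were also deeper. In untreated libraries 282 of them held 5706007 UMIs, and the 1102 with none held 2625487. In untreated Panc02-SIY monocyte-like cells S100a8 was 115 CPM in the 17 barcodes that had no neutrophil marker and 52.1 CPM in the 73 with 2 or more. The share of macrophage-like barcodes with an S100a8 UMI was 5.11% in Panc02-SIY and 3.48% in MC38, at medians of 2113 and 23490 UMIs, against the 6.05% of Panc02-SIY T cell-like barcodes. Thinned to 1000 UMIs per barcode, with 738 macrophage-like and 299 T cell-like barcodes left out as shallower, the Panc02-SIY shares were 1.87% and 1.00%, against 80.2% in neutrophil-like barcodes. Whether doublets or free RNA carry these UMIs was not tested.

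**Figure D2:**
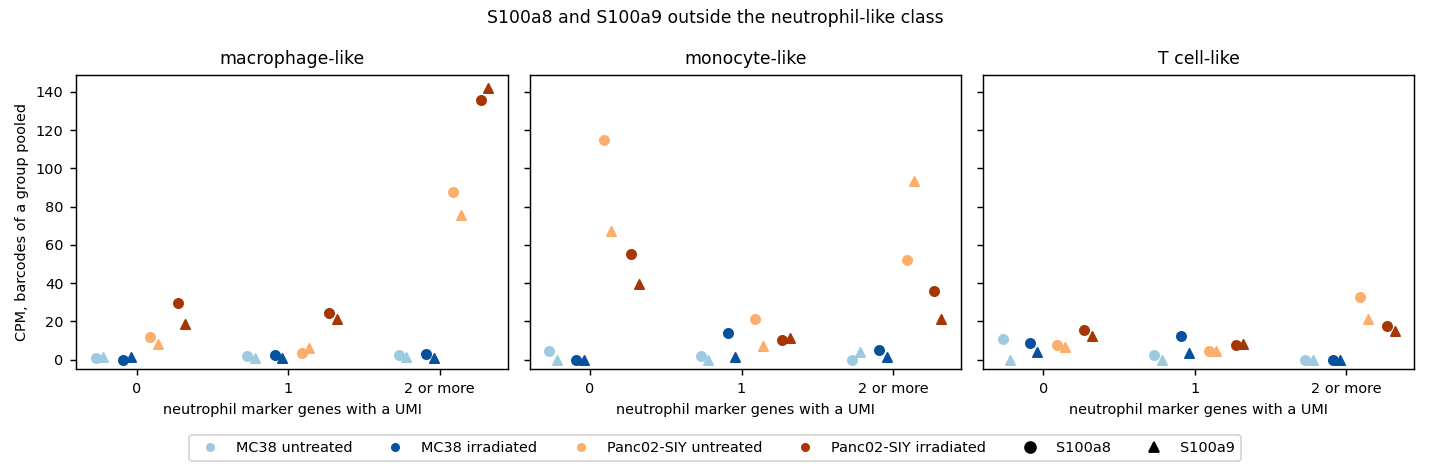
CPM of S100a8 (circles) and S100a9 (triangles) in macrophage-like, monocyte-like and T cell-like barcodes that had UMIs of 0, 1 or at least 2 of the 10 neutrophil marker genes (x axis), with the barcodes of each group pooled, so no error is drawn. In Panc02-SIY macrophage-like cells the pair is highest in barcodes with 2 or more markers. In monocyte-like cells of that line S100a8 is highest in barcodes with none, and S100a9 differs between the treatments.

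S100a4, the myosin-binding member, was highest among the 7 classes ordered in monocyte-like cells at 1852 ± 342 CPM (SD, n = 16), above T cell-like cells at 1236 ± 235 (a mean difference of 0.58 log2 units, higher in 15 of 16 libraries, exact sign-flip permutation test, adjusted p = 0.00586). The cDC2-like subset of cDC-like cells, not in that order, had 2538 ± 349 CPM (n = 3, irradiated Panc02-SIY libraries). In libraries of at least 3 barcodes the subset's mean was 2394 CPM in irradiated and 1768 in untreated Panc02-SIY (n = 4 each). In MC38 it was 1653 CPM untreated (n = 3) and 1422 irradiated (n = 2). T cell-like and cDC-like cells did not differ beyond their spread (adjusted p = 0.268, exact sign-flip permutation test). cDC-like cells stood above macrophage-like cells (a mean difference of 2.58 log2 units, higher in 12 of 12 libraries, exact sign-flip permutation test, adjusted p = 0.00586). It was low in neutrophil-like cells at 43.6 ± 16.1 CPM (n = 8), where S100a6 reached 3713 ± 618 CPM. So the neighbouring genes S100a4 and S100a6, whose upstream letters are printed above, had very unlike levels in this class.

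S100a6 was the most counted member, with 406459 UMIs, against 138879 of S100a4 and 6129 of S100a1. Among the 7 classes ordered, neutrophil-like and monocyte-like cells, at 3169.9 ± 397 CPM in the latter, did not differ beyond their spread (adjusted p = 0.363, exact sign-flip permutation test, 8 libraries). The cDC2-like subset, not in that order, had 4775 ± 477 CPM in irradiated Panc02-SIY libraries of at least 3 barcodes (n = 4). Its means were 2832 CPM in untreated Panc02-SIY (n = 4), 2801 in untreated MC38 (n = 3) and 2330 in irradiated MC38 (n = 2). Monocyte-like cells stood above T cell-like cells at 2539 ± 838 CPM (a mean difference of 0.38 log2 units, higher in 12 of 16 libraries, exact sign-flip permutation test, adjusted p = 0.0174). Within MC38 that mean difference was 0.71 (higher in 8 of 8 libraries) and within Panc02-SIY 0.05 (higher in 4 of 8). Macrophage-like cells measured 613 ± 299 CPM and B cell-like cells 227 ± 133 CPM (n = 7), the lowest level.

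The annexin-binding members had unlike orders. S100a10 was high in lymphocytes, at 923 ± 253 CPM in T cell-like and 809 ± 205 CPM (n = 14) in NK cell-like cells, which did not differ beyond their spread (adjusted p = 0.553, exact sign-flip permutation test). NK cell-like cells stood above monocyte-like cells (a mean difference of 0.34 log2 units, higher in 13 of 14 libraries, exact sign-flip permutation test, adjusted p = 0.0234). In neutrophil-like cells S100a10 was 28.5 ± 17.5 CPM. S100a11 was the reverse there, at 2748 ± 647 CPM, above cDC-like cells at 1172 ± 229.6 CPM (a mean difference of 1.06 log2 units, higher in 8 of 8 libraries, exact sign-flip permutation test, adjusted p = 0.0234). From cDC-like cells it fell through monocyte-like, T cell-like and NK cell-like to macrophage-like cells, and each of these 4 steps passed the test (adjusted p = 0.00781, 0.00703, 0.0174 and 0.00586, exact sign-flip permutation tests).

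S100a13, linked to FGF1 release, was highest in T cell-like cells at 327 ± 67.3 CPM, above NK cell-like cells (a mean difference of 0.48 log2 units, higher in 13 of 14 libraries, exact sign-flip permutation test, adjusted p = 0.00586). S100a1 was low throughout. It was highest in macrophage-like cells at 56.1 ± 9.94 CPM, which held 40.8% of its UMIs, above monocyte-like cells (a mean difference of 0.60 log2 units, higher in 13 of 16 libraries, exact sign-flip permutation test, adjusted p = 0.0174). The 57 epithelial- or cancer cell-like barcodes reached 196 CPM pooled. The head-to-head neighbours S100a1 and S100a13 thus had different leading classes.

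Within T cell-like cells of Panc02-SIY, barcodes with a UMI of Foxp3, the regulatory T cell factor, had 1426 ± 405 CPM of S100a10 (SD, n = 8), against 819 ± 118 in those with Cd8a or Cd8b1 only and 1199 ± 198 in those with Cd4 only. S100a6 was 2119 ± 802 CPM in Cd4-only and 3429 ± 543 CPM in Cd8-only barcodes. These splits rest on single markers and were not tested.

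The genes most like each member were ranked by Pearson's r of log2(CPM + 10) over 24 class-by-group means among 5937 genes, which share libraries and depth, so r is a description. S100a8 and S100a9 were each other's nearest (r = 0.993), followed by Retnlg (0.973 and 0.972), a neutrophil-secreted protein and a gating marker, and Lrg1 (0.970 and 0.970). S100a10 was closest to Ahnak (0.941), a scaffold that binds the S100A10 and annexin A2 complex, then Esyt1 (0.920) and Tmsb10 (0.905). S100a4 was nearest to Pvr (0.886), Arf5 (0.884) and Vim (0.847), the filament protein vimentin. S100a6 was nearest to Cmip (0.842), Sema4a (0.833) and Orai1 (0.83), the pore of a calcium entry channel. S100a11 went with Nfkbia (0.863), Arih2 (0.839) and Rab11fip1 (0.836), and S100a13 with Atp10a (0.881), Itga1 (0.878) and Fam78a (0.875). S100a1 was below the level set for this ranking (a mean of 50 CPM).

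In MC38 tumors, 3 members were higher after radiation over all CD45+ barcodes, as was S100a10 in NK cell-like cells. In all, 4 of 40 member and class pairs were called higher and 0 lower by edgeR's quasi-likelihood test, where a call needs a fold above 1.3 and an adjusted p below 0.1. Over all genes of those fits 3.5% were called higher and 2.75% lower, 6.25% together. Over all CD45+ barcodes alone 7.24% were called higher and 4.45% lower. S100a6 measured 1253, 1219, 1502 and 1041 CPM untreated and 1486, 1420.5, 1935 and 1712 CPM irradiated (log2 fold change 0.48 ± 0.13 SE, edgeR adjusted p = 0.0321). The irradiated libraries lie high, with 2 of 4 inside the untreated range. S100a11 measured 439, 543, 476 and 411 CPM untreated and 717, 566, 690.2 and 547 CPM irradiated (log2 fold change 0.52 ± 0.12, edgeR adjusted p = 0.0115), with no overlap. S100a10 measured 411, 361, 382 and 313 CPM untreated and 508, 386, 514 and 488 CPM irradiated, with 1 irradiated library inside the untreated range (log2 fold change 0.47 ± 0.13, edgeR adjusted p = 0.0396). The median of the 8 members was 0.28 and that of all genes tested 0.04.

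A level over all CD45+ barcodes cannot tell more RNA per cell from a different mix of cells. In MC38 the mean share of macrophage-like barcodes was 44.2% untreated and 32.3% irradiated, with no overlap between libraries. That of monocyte-like barcodes was 10.4% untreated and 3.64 percentage points more irradiated (6.87 to 13.8% and 8.84 to 18.2%, with overlap). For T cell-like barcodes it was 8.72% untreated and 12.1% irradiated (7.25 to 10.1% and 5.21 to 15.7%, with overlap). The part of these shares in the 3 calls was not tested. With only barcodes whose richest library held most of their UMIs, the 3 values were 0.44 for S100a6, 0.30 for S100a11 and 0.28 for S100a10, and none was called (edgeR adjusted p = 0.182, 0.457 and 0.525). This setting kept 20709 of 20768 barcodes, and irradiated MC38 replicate 1 was the only library to lose any. Without irradiated replicate 3, S100a6 was 0.40 and S100a10 0.42 (edgeR adjusted p = 0.114 and 0.112), and without untreated replicate 4 S100a10 was 0.41 (0.112). With all deposited barcodes S100a10 was 0.39 (edgeR adjusted p = 0.11) and also not called.

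In MC38 NK cell-like cells S100a10 measured 506, 849 and 671 CPM in 3 untreated libraries and 1045, 1201 and 1128 CPM in 3 irradiated ones, with no overlap (log2 fold change 0.87 ± 0.20, edgeR adjusted p = 0.0675). There 0.256% of genes were called higher. The class held 58 and 81 barcodes, and the call was lost in 9 of 23 alternatives, among them with all deposited barcodes (0.49, edgeR adjusted p = 0.335) and without untreated replicate 1 (0.74, edgeR adjusted p = 0.393), irradiated replicate 3 (0.81, 0.316) or irradiated replicate 4 (0.87, 0.12). S100a11 measured 484, 461 and 346 CPM untreated and 611, 575 and 833 CPM irradiated and missed the threshold (edgeR adjusted p = 0.205). In monocyte-like cells S100a11 measured 735, 835, 739 and 746 CPM untreated and 989, 1088, 1279 and 963 CPM irradiated, with no overlap (log2 fold change 0.54 ± 0.13, edgeR adjusted p = 0.169, not called, where 0.0798% of genes were). No member was called in MC38 macrophage-like or T cell-like cells, where 13.1% and 0.699% of genes were.

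**Figure D3:**
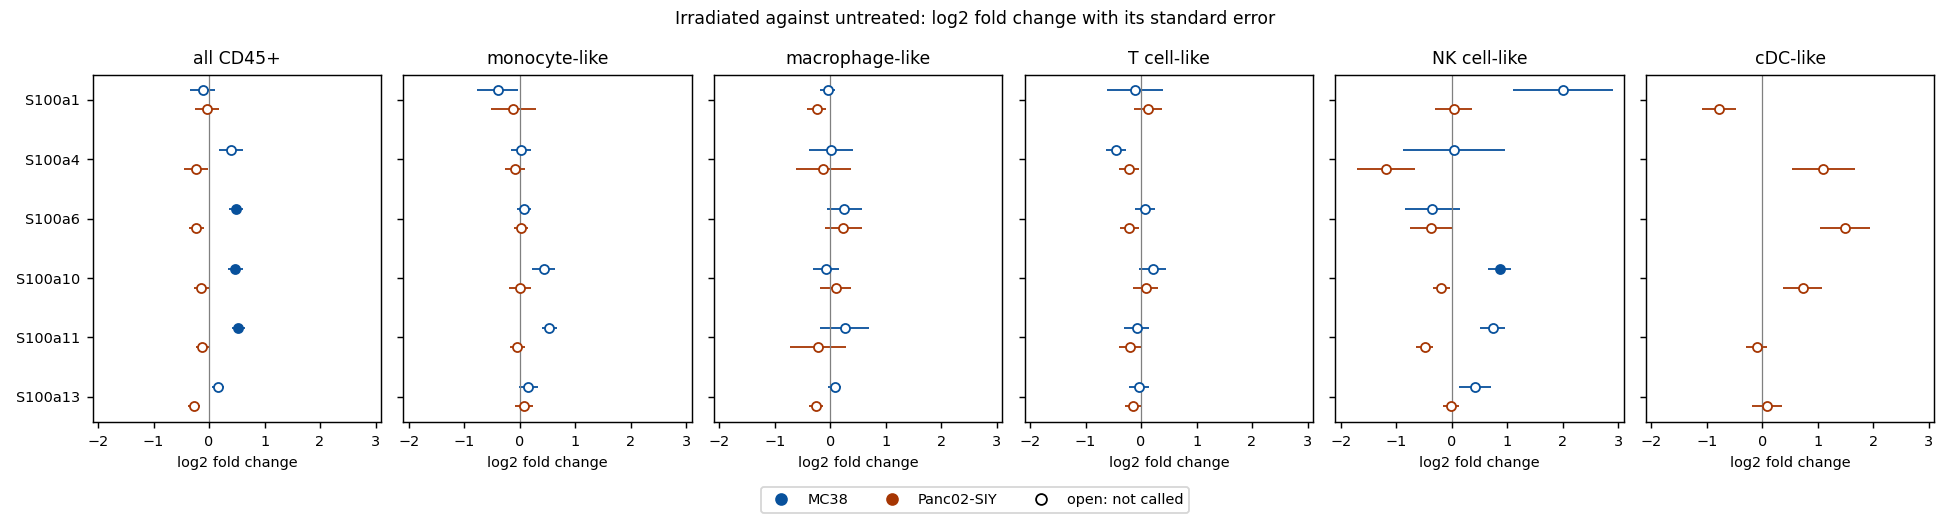
Log2 fold change of irradiated against untreated libraries with its standard error for 6 S100a genes (rows) in 6 cell classes (panels), from edgeR, in MC38 and Panc02-SIY. Filled points passed the threshold. The filled points are S100a6, S100a10 and S100a11 over all MC38 CD45+ barcodes and S100a10 in MC38 NK cell-like cells, and S100a8 and S100a9 are left out because their values would stretch the axis.

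In Panc02-SIY tumors no member was called in edgeR after radiation in any class, 0 of 68 pairs. DESeq2 called 2, and its share over all genes is not given. An unadjusted p below 0.05 in edgeR was found for 10 pairs. Genes at that level were 3467 of 12447 over all CD45+ barcodes, 1707 of 9821 in macrophage-like and 1533 of 8581 in T cell-like cells. They were 785 of 8211 in NK cell-like, 658 of 7268 in cDC-like, 587 of 6264 in monocyte-like and 356 of 5005 in neutrophil-like cells. In the smaller fits they were 300 of 3342 in cDC1-like, 172 of 3112 in mregDC-like and 171 of 1629 in B cell-like cells. Of all genes in the edgeR fits 4.72% were called, and over all CD45+ barcodes 7.69% were called higher and 6.99% lower. In cDC-like cells S100a6 measured 1618, 459, 1115 and 267 CPM untreated and 2520.3, 2311, 2875 and 2103 CPM irradiated, with no overlap. The log2 fold change was 1.49 ± 0.46 (edgeR adjusted p = 0.314, where 0.399% of genes were called). Without untreated replicate 1 it was 1.98 (edgeR adjusted p = 0.0347) and with all deposited barcodes 1.57 (0.0632), both called. S100a4 measured 1145, 240.3, 749 and 161 CPM untreated and 1459, 1306, 1418 and 776 CPM irradiated, with overlap (log2 fold change 1.10 ± 0.56, edgeR adjusted p = 0.616). S100a11 in the same cells measured 1209 to 1482 CPM untreated and 1085 to 1526 CPM irradiated.

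The pooled makeup of the cDC-like class differed as well. Pooled over libraries, the cDC2-like share of Panc02-SIY cDC-like barcodes was 9.76% of 205 untreated and 29.6% of 203 irradiated. By library it was 4.88 to 24.3% untreated and 24.4 to 39.7% irradiated. The cDC1-like share, from cells specialised in cross-presentation, was 69.3% untreated and 40.4% irradiated when pooled. By library it was 35.1 to 85.7% and 31.7 to 50%, with overlap. Neither share was tested, and the subsets were split by the best-scoring list with no lead required between them. The cDC2-like libraries had 1101 to 2292 CPM of S100a4 untreated and 1961 to 2786 CPM irradiated, and the cDC1-like libraries 68.4 to 183 and 113 to 970 CPM, in libraries with at least 3 barcodes. Within cDC2-like cells S100a6 measured 3563, 2704, 3075 and 1984 CPM untreated and 4171, 5009.9, 5271 and 4648 CPM irradiated, with no overlap (log2 fold change 0.72 ± 0.23 SE, edgeR adjusted p = 0.634). Within cDC1-like cells it was 1423, 255, 468 and 193 CPM and 1568, 797, 930.2 and 1425 CPM, with overlap. Within mregDC-like cells (mature, migrating type) it was 1055, 660.2, 466 and 261 CPM and 938, 1828, 1437 and 1404 CPM, with overlap. None of these subset differences passed the threshold, and the part of the makeup in the class value was not tested. In MC38 cDC-like cells, S100a6 at 3 or more barcodes per library measured 2274, 1492, 2337 and 1555 CPM untreated and 1931, 2493, 2236 and 2385 CPM irradiated (log2 fold change 0.36 ± 0.39 SE, edgeR adjusted p = 0.914). Untreated MC38 cDC-like cells were called higher in S100a6 than untreated Panc02-SIY ones in that added fit (log2 fold change 1.18 ± 0.39 SE, edgeR adjusted p = 0.0875, with 10.1% of genes called). The fit at 10 barcodes gave 1.29 and no call (edgeR adjusted p = 0.172, with 8.43% of genes called), and without untreated Panc02-SIY replicate 1 it gave 1.79 and a call (0.0256), as did all deposited barcodes (1.41, 0.0154). Of 44 untreated MC38 cDC-like barcodes, 38.6% were cDC2-like and 27.3% cDC1-like. At 3 barcodes the same contrast was 0.10 ± 0.25 SE in cDC2-like and 0.74 ± 0.74 SE in cDC1-like cells. Neither was called (edgeR adjusted p = 0.838 and 0.643, with 10.9% and 8.82% of genes called). In mregDC-like cells it was 0.36. The part of the makeup in this contrast was not tested.

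**Figure D4:**
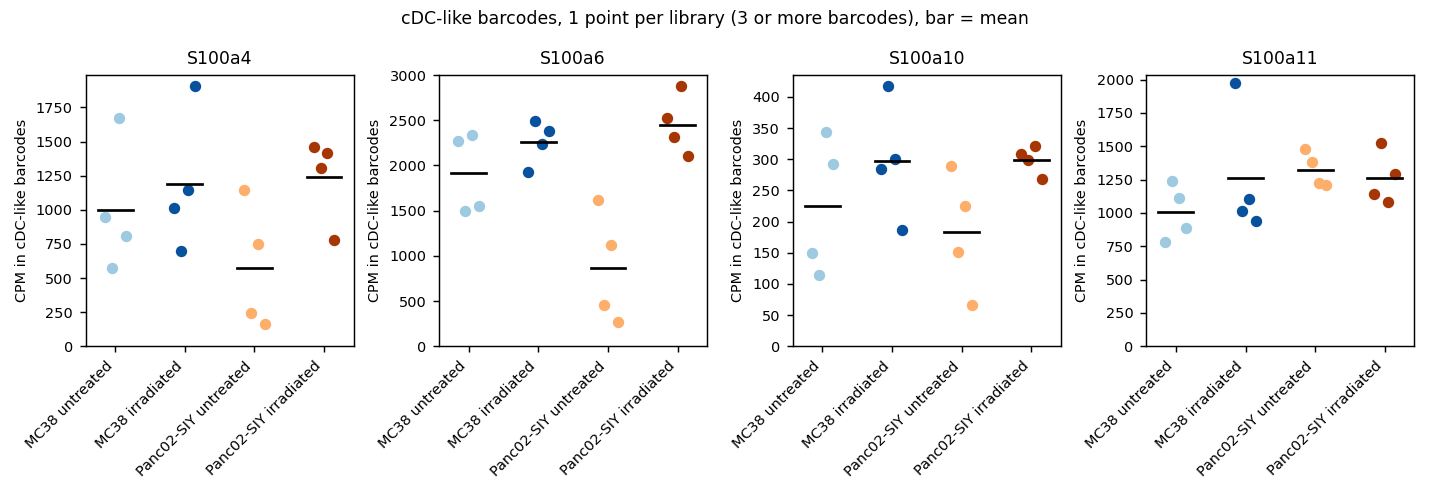
CPM of S100a4, S100a6, S100a10 and S100a11 in cDC-like barcodes, with 1 point per library of at least 3 barcodes and a bar at the mean of each of the 4 groups. For S100a6 the irradiated Panc02-SIY libraries lie at 2103 to 2875 CPM, above the untreated ones at 267 to 1618 CPM, while the MC38 groups overlap.

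In Panc02-SIY neutrophil-like cells, S100a11 measured 3686, 2567, 3116 and 3425 CPM untreated and 2123, 2936, 1872 and 2262 CPM irradiated (log2 fold change -0.48 ± 0.16, edgeR adjusted p = 0.552), where 0.0599% of genes were called. S100a8 and S100a9 had log2 fold changes of -0.15 ± 0.16 and -0.20 ± 0.18 there (edgeR adjusted p = 0.901 and 0.88). Over all CD45+ barcodes S100a8 measured 1045, 593, 435 and 252 CPM untreated and 1503, 1216, 876 and 504 CPM irradiated, with overlap. The neutrophil-like share was 7.26% ± 2.04 (SD, n = 4) untreated and 12.6% ± 3.25 irradiated, a difference of 5.30 percentage points (exact two-sided permutation test p = 0.0857, where 0.0286 is the smallest the design allows). In MC38 the shares were 0.459% ± 0.336 and 0.624% ± 0.323 (exact permutation test p = 0.543). In NK cell-like cells of Panc02-SIY, S100a11 measured 400.4, 450.1, 361 and 482 CPM untreated and 315, 331, 242 and 360.3 CPM irradiated, with no overlap (log2 fold change -0.49 ± 0.16, edgeR adjusted p = 0.19, not called, where 0.743% of genes were).

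The radiation effects of the lines did not differ by more than the threshold for any member in edgeR, 0 of 40. DESeq2 called 3, and its share over all genes is not given. An unadjusted p below 0.05 in edgeR was found for 8. These were 4 of 8 members over all CD45+ barcodes (1472 of 12447 genes), 2 of 8 in monocyte-like (363 of 6264) and 2 of 8 in NK cell-like cells (571 of 8211). They were 0 of 8 in macrophage-like (663 of 9821) and T cell-like cells (400 of 8581). Of all genes in the edgeR fits 0.104% were called, 0.345% over all CD45+ barcodes and 0.0% in NK cell-like cells. The NK cell-like S100a11 had the smallest unadjusted p, with 0.74 in MC38 and -0.49 in Panc02-SIY (difference 1.23 ± 0.27 SE, edgeR adjusted p = 0.247). Without untreated MC38 replicate 1 the difference was 1.45 (edgeR adjusted p = 0.0494), and without irradiated Panc02-SIY replicate 4 it was 1.31 (0.0947). Over all CD45+ barcodes S100a6 differed by 0.72 ± 0.19 (edgeR adjusted p = 0.14), S100a11 by 0.65 ± 0.16 (0.129) and S100a10 by 0.61 ± 0.19 (0.202). Without irradiated Panc02-SIY replicate 2 the S100a6 difference was 0.74 (edgeR adjusted p = 0.0865). With all deposited barcodes the S100a6 and S100a13 differences were called (0.65 and 0.48, edgeR adjusted p = 0.0611 and 0.0765).

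Between the tumor lines the members parted by class. Untreated MC38 had 6 member and class pairs higher and 14 lower than untreated Panc02-SIY of 47 tested, where 15.6% of genes were called higher and 16.7% lower. Irradiated MC38 had 12 higher and 10 lower of 40, where 18.8% of genes were called higher and 19.1% lower. These comparisons share libraries with the radiation ones, and whatever else differed between the lines, depth and shared barcodes included, cannot be told apart from the line. MC38 macrophage-like cells carried more S100a4, S100a6, S100a10 and S100a11. S100a10 measured 334, 272, 304 and 262 CPM in untreated MC38 and 130.5, 63.9, 62.8 and 53.0 CPM in untreated Panc02-SIY. All MC38 libraries lie above all Panc02-SIY ones (log2 fold change 2.21 ± 0.26, edgeR adjusted p = 7.02e-06), where 21.5% of genes were called higher. In irradiated tumors it was 2.04 ± 0.26 (edgeR adjusted p = 1.52e-05), where 22.6% were. S100a6 measured 947, 758, 892 and 717 CPM and 558, 208, 385 and 187 CPM untreated, with no overlap (log2 fold change 1.47 ± 0.33, edgeR adjusted p = 0.00317). S100a4 measured 326, 284, 325 and 256 CPM and 252, 47.1, 91.7 and 62.1 CPM, with no overlap between the groups and 1 Panc02-SIY library close to MC38 (log2 fold change 1.86 ± 0.46, edgeR adjusted p = 0.00572).

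S100a11 was less steady in untreated macrophage-like cells. It measured 351, 388, 285 and 305 CPM in MC38 and 495, 129.8, 112 and 79.4 CPM in Panc02-SIY, where replicate 1 lies above all MC38 libraries (log2 fold change 1.08 ± 0.48, edgeR adjusted p = 0.0912). It lost its call in 13 of 24 alternatives, among them when any untreated library other than Panc02-SIY replicate 1 was left out (0.77 to 1.15, edgeR adjusted p = 0.118 to 0.244). In irradiated tumors it measured 419, 357, 348 and 357 CPM and 199, 202, 108 and 85.1 CPM, with no overlap (log2 fold change 1.56 ± 0.48, edgeR adjusted p = 0.0185). Macrophage-like barcodes had a median of 23490 UMIs in MC38 and 2113 in Panc02-SIY. Among barcodes with 500 genes or more and no more than 10% of UMIs from mitochondria, S100a4, S100a6 and S100a10 kept their calls. The 9 T cell markers summed to 8.48 to 31.2 CPM in untreated MC38 and 90 to 200.4 CPM in untreated Panc02-SIY macrophage-like cells, with none at 0, and the 10 macrophage markers to 15050 to 16800 and 11610 to 15070 CPM. Their part in the result was not tested.

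**Figure D5:**
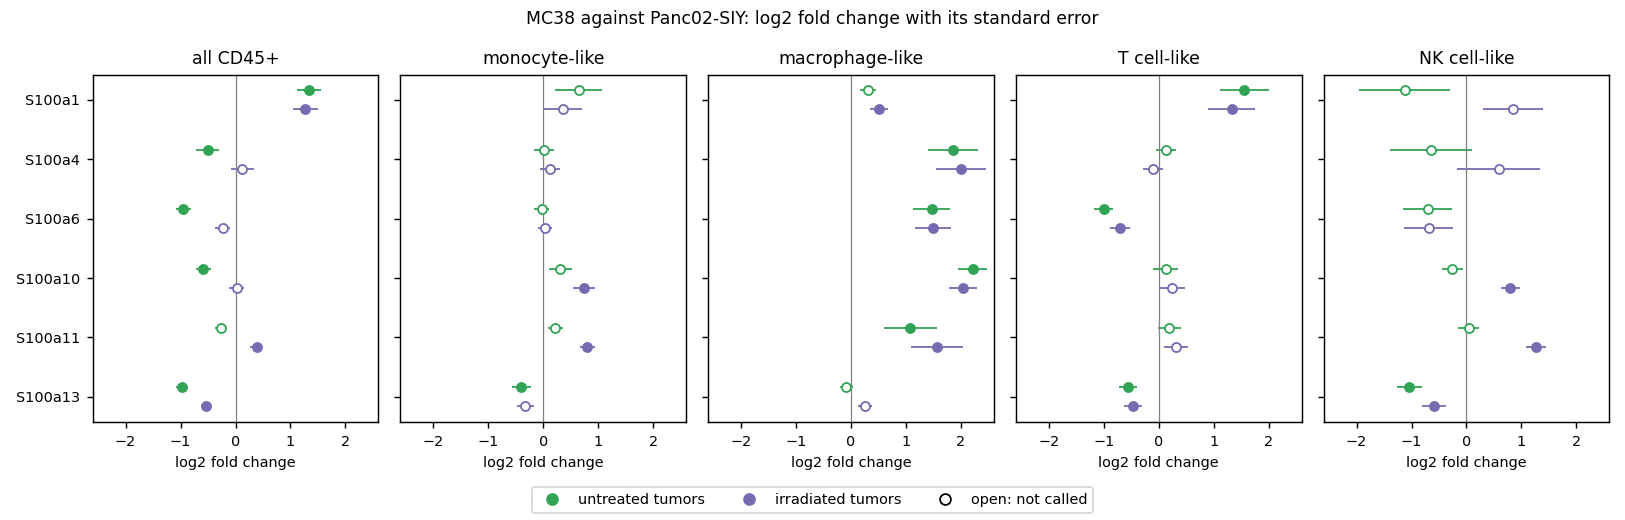
Log2 fold change of MC38 against Panc02-SIY with its standard error for 6 S100a genes (rows) in 5 cell classes (panels), from edgeR, in untreated and irradiated tumors. Filled points passed the threshold. In macrophage-like cells S100a4, S100a6, S100a10 and S100a11 lie to the right of 0, and in T cell-like cells S100a6 and S100a13 lie to the left.

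T cell-like cells went the other way for S100a6, at 1758, 1949, 1796 and 1509 CPM in untreated MC38 and 3546, 3802, 3434 and 2887 CPM in untreated Panc02-SIY, with no overlap (a fold of 0.499, edgeR adjusted p = 0.000736), where 6.81% of genes were called lower and 7.76% higher. In irradiated tumors its log2 fold change was -0.71 ± 0.18 (edgeR adjusted p = 0.0113), where 7.64% were called lower and 8.54% higher. S100a13 was also lower in MC38, at 304, 257, 319 and 207 CPM against 398, 384, 397 and 374 CPM untreated (log2 fold change -0.56 ± 0.16, edgeR adjusted p = 0.028). S100a1 was higher, at 16.9, 23.3, 19.3 and 19.2 CPM against 7.73, 5.84, 6.20 and 6.26 CPM (log2 fold change 1.56 ± 0.44, edgeR adjusted p = 0.0264). The MC38 value rests on 15 UMIs in 114 barcodes. Macrophage markers, from the class with most S100a1, summed to 361 to 731 CPM in untreated MC38 and 96.7 to 381 CPM in untreated Panc02-SIY T cell-like cells, 9 and 10 of 10 with a UMI, and their part was not tested. In irradiated tumors S100a1 in T cell-like cells was called at 1.33, and not without irradiated MC38 replicate 4 (0.61, edgeR adjusted p = 0.704).

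In NK cell-like cells S100a13 was lower in untreated MC38, at 121, 148 and 166 CPM against 274, 321, 279 and 312 CPM (log2 fold change -1.04 ± 0.23, edgeR adjusted p = 0.00367), where 6.28% of genes were called lower. In irradiated tumors S100a11 was higher in MC38, at 611, 575 and 833 CPM against 315, 331, 242 and 360.3 CPM (log2 fold change 1.26 ± 0.18, edgeR adjusted p = 4.63e-06), where 6.61% of genes were called higher. S100a10 was higher as well (0.80 ± 0.17, edgeR adjusted p = 0.00145). In monocyte-like cells S100a4 and S100a6 were not called, with log2 fold changes of 0.01 ± 0.18 and -0.03 ± 0.13 untreated (edgeR adjusted p = 0.978 and 0.886). Irradiated MC38 monocyte-like cells had more S100a11, at 989, 1088, 1279 and 963 CPM against 620.0, 801, 711 and 737 CPM (log2 fold change 0.80 ± 0.13, edgeR adjusted p = 3.38e-05), and more S100a10 (0.74 ± 0.20, 0.00575). There 42.7% of genes were called.

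The calprotectin pair was called lower in MC38 in monocyte-like and macrophage-like cells of both treatments. In untreated macrophage-like cells MC38 held 32 S100a8 UMIs of 15323457 and Panc02-SIY 542 of 11927897 (log2 fold change -4.76 ± 0.81, edgeR adjusted p = 0.000446), where 23.7% of genes were called lower. In untreated monocyte-like cells the counts were 2 and 57, where 17.9% of genes were called lower, and S100a9 was not called without untreated Panc02-SIY replicate 3 (-2.77, edgeR adjusted p = 0.163). In irradiated tumors 24.9% of genes were called lower in macrophage-like and 21.7% in monocyte-like cells. The irradiated monocyte-like call of S100a8 (-1.83, edgeR adjusted p = 0.0441) was lost in 5 of 24 alternatives, with all barcodes (-1.07, 0.147), with doublets removed (-0.91, 0.253), with the strict gate (-0.85, 0.444) and without irradiated MC38 replicate 2 (-1.60, 0.117) or 3 (-1.70, 0.147). That of S100a9 (-3.74, edgeR adjusted p = 0.0613) was lost in 9 of 21, among them without irradiated MC38 replicate 2, 3 or 4 (-3.48, -3.65 and -4.43, 0.128, 0.163 and 0.138) or irradiated Panc02-SIY replicate 2 or 3 (-3.24 and -3.63, 0.113 and 0.107). In irradiated macrophage-like cells S100a8 was -4.87, and with doublets removed it was -3.27 and not called (edgeR adjusted p = 0.119). Neutrophil-like cells, which held most of the pair's UMIs, were 0.459% of untreated MC38 and 7.26% of untreated Panc02-SIY barcodes, and their part was not tested. Over all CD45+ barcodes 6 members were lower and S100a1 higher in untreated MC38, where 61.1% of genes were called in either direction and 29.1% higher. S100a13 measured 125, 123, 140.1 and 139.6 CPM against 309.5, 296, 314 and 271 CPM (log2 fold change -0.97 ± 0.10, edgeR adjusted p = 7.48e-07), with no overlap. Macrophage-like cells were 44.2% of untreated MC38 and 14.7% of untreated Panc02-SIY barcodes, and T cell-like cells 8.72% and 43.5%. S100a4 was lower too (-0.51 ± 0.21, edgeR adjusted p = 0.0464). It lost its call without any of 4 untreated libraries, MC38 replicate 1 or 4 or Panc02-SIY replicate 1 or 3 (-0.46, -0.41, -0.46 and -0.43, edgeR adjusted p = 0.108, 0.13, 0.106 and 0.124). In irradiated tumors S100a11 was called higher at 0.39 (where 29.9% of genes were). That call was lost in 13 of 24 alternatives, among them with all deposited barcodes (0.37, below the fold), with only barcodes that have most of their UMIs in 1 library (0.16, edgeR adjusted p = 0.527), with library size alone (0.02, 0.899) and when any of 5 libraries was left out, irradiated MC38 replicate 1 or 3 or irradiated Panc02-SIY replicate 1, 3 or 4 (0.26 to 0.35, below the fold).

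The genes around the family were read from 4 lists. Of 10 receptors and surface partners tested over all MC38 CD45+ barcodes, where 7.24% of all genes were called higher and 4.45% lower, 1 rose with radiation, Itgb2 (log2 fold change 0.46 ± 0.10 SE, edgeR adjusted p = 0.00986), a leukocyte integrin chain, and the list's median was 0.25. Of 14 genes of signaling below the receptors 2 rose there, Il1b (0.65 ± 0.12 SE, edgeR adjusted p = 0.00384) and Nfkb1 (0.44 ± 0.10 SE, 0.016). Of 16 annexins and other protein partners, Anxa2, which pairs with S100a10, rose (0.41 ± 0.14 SE, edgeR adjusted p = 0.0801) and Trp53, which binds several S100 proteins, fell (-0.39 ± 0.09 SE, 0.0164). In Panc02-SIY 3 of 10 receptors rose, Itgam (1.33 ± 0.15 SE, edgeR adjusted p = 0.000101), Cd14 (1.08 ± 0.16 SE, 0.000862) and Tlr4 (0.66 ± 0.15 SE, 0.00742), where 7.69% of all genes were called higher and 6.99% lower. The monocyte-like share of Panc02-SIY barcodes was 1.65% ± 1.37 (SD, n = 4) untreated and 5.53% ± 0.81 irradiated, with no overlap, and its part in these calls was not tested. The lists' medians beside an all-gene median of -0.03 were 0.30 for receptors, 0.35 for signaling and -0.11 for protein partners. Of the signaling list 4 of 14 rose, Il1b most (1.10 ± 0.12 SE, edgeR adjusted p = 9.3e-05), and Cacybp, which encodes the S100a6 partner calcyclin-binding protein, fell (-0.49 ± 0.14 SE, 0.027), as did Trp53 (-0.40 ± 0.09 SE, 0.00693). Within macrophage-like cells Il1b rose in both lines (0.98 ± 0.17 SE in MC38, 0.75 ± 0.17 SE in Panc02-SIY, edgeR adjusted p = 0.000801 and 0.0189), where 13.1% and 6.16% of all genes were called. In MC38 NK cell-like cells, where S100a10 was called, 0 of 16 protein partners were. On the list of other S100 genes, S100pbp, which encodes an S100P-binding protein and no S100 protein, rose over all MC38 CD45+ barcodes (0.67 ± 0.24 SE, edgeR adjusted p = 0.0886).

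Between untreated tumors, 7 of 10 receptors were higher over all MC38 CD45+ barcodes and 0 lower, where 29.1% of all genes were called higher. Among them Cd14 was at 4.31 ± 0.18 SE (edgeR adjusted p = 6.15e-11). The macrophage-like share, 44.2% in untreated MC38 and 14.7% in untreated Panc02-SIY, moved with these calls, and its part was not tested. In macrophage-like cells, where S100a10 and S100a11 were higher in MC38, 5 of 16 protein partners were higher and 4 lower, where 21.5% of all genes were called higher and 23.7% lower. Anxa1, the partner of S100a11, was at 4.49 ± 0.42 SE (edgeR adjusted p = 1.51e-06), Ahnak at 2.12 ± 0.59 SE (0.0111) and Anxa2 at 1.24 ± 0.33 SE (0.00871). On the list of other S100 genes only S100a16 and S100pbp passed the filter over all CD45+ barcodes, and both were lower in untreated MC38 (-4.55 ± 0.78 SE and -1.34 ± 0.21 SE, edgeR adjusted p = 0.000115 and 4.83e-05).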

How the data were processed

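Live CD45+ cells from tumors were profiled in 16 libraries by 10x 3′ sequencing. Per the submitters' processing notes, bcl2fastq 2.20.0 and Cell Ranger 3.1.0 were used with mm10, and the authors deposited UMI counts per gene and barcode for each library, which were used as deposited. Libraries were grouped by their labels, and no other column of values was found (0). How barcodes were called is not given in the sources used here. The 8 members, the gene lists and the cell class markers were chosen with earlier results of these data known.

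Each barcode was kept in its richest library of a tumor line and gated by 15 lists of 116 marker genes (at least 2 markers with a UMI, and a lead of 1.5 over the second list). For a cDC list the lead was taken over the best list that is not a cDC list. So cDC1-like, cDC2-like and mregDC-like barcodes needed no lead over each other. No doublets were removed in the results reported, since Scrublet's own threshold marked 0.414% of barcodes. Removing the top 5% of scores per library was an alternative. Counts were summed per library and class (at least 10 barcodes) and tested with edgeR 4.0.16 in R 4.3.3 (TMM, quasi-likelihood, all 4 groups in a fit, Benjamini-Hochberg over all genes). Calls needed a fold above 1.3 and an adjusted p below 0.1, as in the study's methods. CPM are shares of UMIs per class and library times 1000000. Class levels were compared on log2(CPM + 10). All members and, from each list, up to 3 called genes of the largest fold change are named. A further split of T cell-like barcodes is not reported here. Of these steps only the edgeR fit was tested on simulated data, for irradiated against untreated Panc02-SIY in T cell-like, macrophage-like and cDC-like cells. DESeq2 1.42.0, RLE scaling, other gates and filters, a minimum of 20 barcodes and leaving out each library were alternatives, and a minimum of 3 barcodes was added after seeing the data. Intervals cover counting error only. Sequences and positions are of mm10 (GENCODE vM21, where 31011 of 31053 identifiers matched).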

Additional observations from a re-analysis of the deposited data

Results flagged for a closer look

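In 12 of 179 tested groups of 4 libraries, 1 library lay far from the other 3 by Dixon's test, where chance gives about 1 in 20. Untreated Panc02-SIY replicate 1 was that library in 5 of them, each time on the high side. Its S100a10 was 761 CPM against 584 to 596 in the others over all CD45+ barcodes, 130.5 CPM against 53.0 to 63.9 in macrophage-like and 548 CPM against 37.6 to 90.5 in cDC1-like cells. Its S100a11 was 778 CPM over all CD45+ barcodes, above the other 3, and 495 CPM against 79.5 to 129.8 in macrophage-like cells. Untreated Panc02-SIY replicate 3 stood out in S100a8 of macrophage-like cells (167 CPM against 14.4 to 40.5). Irradiated Panc02-SIY replicate 2 was high in S100a6 over all CD45+ barcodes (3029 CPM against 2270 to 2384), and replicate 1 in S100a13 of cDC1-like cells (330 CPM against 95.1 to 116).

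In MC38, irradiated replicate 1, the library with 147 barcodes, was low in S100a10 of monocyte-like cells (533 CPM against 879 to 900.5) and high in S100a11 of macrophage-like cells (419 CPM against 348 to 357). Irradiated replicate 2 was low in S100a6 of T cell-like cells (1440 CPM against 1989 to 2052), and untreated replicate 2 high in S100a11 of monocyte-like cells (835 CPM against 735 to 746).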

How the results depend on the processing

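Of 46 called values of S100a genes, 28 kept their call under every alternative run and none reversed. Of 27 with an unadjusted p below 0.05 and no call, 15 gained a call somewhere. For S100a genes called in MC38 after radiation, the count of 4 was 1 with only barcodes that have most of their UMIs in 1 library, 2 with library size alone, and 1 to 4 when 1 library was left out, with 1 without irradiated replicate 3. In Panc02-SIY the count of 0 for S100a genes was 1 with all barcodes, with the strict gate, with the thinned gate, with a minimum of 20 barcodes, and with only the 2 groups in the fit, 2 with the cell filter and with DESeq2, 5 with no filter on low counts, and 0 to 3 when 1 library was left out, with 3 without untreated replicate 1, 2 without untreated replicate 3 and 1 without irradiated replicate 2. For the difference between the lines the count of 0 was 2 with all barcodes, with the cell filter and with no filter on low counts, 3 with DESeq2, and 0 to 1 when 1 library was left out. The share of all genes called is not given for the alternatives in this section, so these counts have no background beside them. The tumor-line counts and the class order stayed within 1.5 times. The difference in the neutrophil-like share of MC38, 0.165 percentage points, was -0.0293 with all barcodes, -0.430 with the cell filter and -0.225 with the thinned gate. The cause was not tested.

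With the replicate number as a block, the count of called S100a genes was 1 in Panc02-SIY (cDC-like S100a6, 1.75, edgeR adjusted p = 0.0675) and 3 for the difference between the lines (all CD45+ S100a6 and S100a11, 0.72 and 0.65, 0.0922 and 0.0913, and NK cell-like S100a11, 1.32, 0.0571). It also called S100a6 higher in untreated MC38 cDC-like cells (1.35, 0.06) and lost the call of S100a13 in untreated monocyte-like cells (-0.39, 0.102). That S100a13 call between the lines (-0.40) was lost in 17 of 24 alternatives. Between irradiated tumors the S100a13 calls in NK cell-like and T cell-like cells (-0.60 and -0.46) were lost in 10 and 9 of 24. The replicate numbers were not taken to pair libraries, since r was not above 0.1 for every pair. The same-number deviations had r of 0.209, -0.0181, 0.113 and 0.0412 for the MC38 pairs, and for those of Panc02-SIY r was 0.63, -0.216, 0.216 and 0.815, and 1 of 4 and 2 of 4 numbers were best matched by their own. Library size alone moved the median of all genes to -0.24 untreated and -0.37 irradiated between the lines over all CD45+ barcodes, from -0.04 and 0.00. MC38 classes held few barcodes, and S100a1 and, outside neutrophil-like cells, S100a8 and S100a9 few UMIs, which limits those values.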

Other observations

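A single barcode outside the classes in untreated MC38 held 202 of the 214 S100a8 UMIs of its group's 360 unclassed barcodes. It had 1340 UMIs in all, of which 9 were of S100a9 and none of a neutrophil marker. In irradiated MC38 the highest such barcode held 46 of 59 S100a8 UMIs, with 37 of S100a9 and UMIs of 7 neutrophil markers. The 4036 unclassed barcodes held 8.25% of all S100a8 and 6.16% of all S100a9 UMIs, with 1.59 S100a8 UMIs per S100a9 UMI. The 57 epithelial- or cancer cell-like barcodes, 39 of them from untreated and 18 from irradiated Panc02-SIY, had 7845 CPM of S100a6 and 1737 CPM of S100a4 pooled. The 166 fibroblast-like barcodes had 5258 CPM of S100a6, and both pooled S100a6 levels are above the 3535 CPM of neutrophil-like cells.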
